A study of Mus musculus with 27 samples.

Results

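The comparison described here is that of lin28Tg with wild-type (WT) cytotoxic T lymphocytes (CTLs) at day 5 of culture, across all genes. Its members were the 6 RNA-seq libraries whose labels give the genotype WT P14+ or Lin28bTg P14+ and the time 5 days, 3 per genotype, of 27 libraries in the series. The series also holds naive cells, cells activated for 12 h and a let-7Tg genotype at each stage. P14+ mice carry a transgenic T cell receptor that recognizes the gp33 peptide of lymphocytic choriomeningitis virus. The P14+ lines are described on a Rag2-/- background, in which endogenous antigen receptor genes are not rearranged. All groups, WT included, were cultured with doxycycline at 2 µg/ml, the agent that switches on the let-7g transgene of the let-7Tg line. Cells prepared from lymph nodes and spleens were stimulated with soluble anti-CD3 at 2 µg/ml and irradiated splenocytes, received IL-2 at 100 U/ml from 48 h and were collected 3 days later. The labels give the tissue as lymph nodes. The lin28 transgene is described as active from the thymus on. The mice used for CTL cultures were 6 to 10 weeks old and of both sexes. The promoter of the transgene and any pooling of mice are not given in the sources used here.

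MicroRNAs of the let-7 family pair through their seed, bases 2 to 8, with sites in the 3′ untranslated regions (UTRs) of messenger RNAs and lower the level or the translation of those transcripts. Lin28a and Lin28b are RNA-binding proteins that hold back the maturation of let-7 precursors. In a CD8 T cell let-7 is abundant before activation and declines once the T cell receptor is engaged, while CTLs build lytic granules and lose molecules of the naive state. The family is shown here because the seed defines the sites searched for further on. The capitals mark the seed, and the mature sequences and positions are from RefSeq on GRCm38.p6.
let-7a-5p (chr13:48538239-48538260, minus strand): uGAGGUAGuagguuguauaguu
let-7b-5p (chr15:85707325-85707346, plus strand): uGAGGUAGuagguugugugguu
let-7g-5p (chr9:106178846-106178867, plus strand): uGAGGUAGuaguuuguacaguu
let-7i-5p (chr10:122985698-122985719, minus strand): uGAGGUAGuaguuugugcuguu
miR-98-5p (chrX:151913229-151913250, plus strand): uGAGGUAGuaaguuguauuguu
let-7j (chr3:140028281-140028304, plus strand): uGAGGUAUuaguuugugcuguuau
The first 5 share the seed GAGGUAG, as did 10 of the 11 family names that were looked up. Of these let-7j alone carried GAGGUAU. The let-7g member is the one encoded by the transgene of the let-7Tg line.

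Between 18438304 and 18848021 reads were assigned to genes in the WT libraries and between 19256915 and 22195653 in the lin28Tg libraries. At these depths 10 reads on a gene of 2 kb stood for 0.225 to 0.271 FPKM (fragments per kilobase of transcript, scaled to the mapped reads of the library). The 10 genes with most reads took 5.06 to 6.83% of all reads. Values quoted as 3 numbers are FPKM in libraries 1, 2 and 3 of a genotype, in that order, and where such values follow each other WT comes first. A value in brackets after a gene is its log2 fold change of lin28Tg over WT, with the SE of the model after ± where given. Lin28b served as a check of the labels, with 0, 0 and 0 FPKM in WT and 21.9, 14 and 22.4 FPKM in lin28Tg CTLs, at least 653-fold higher than the 0.0297 FPKM that 3 reads per WT library allow. All 10 CD8 T cell markers were above 1 FPKM in every library. They summed to 4460 to 4827 FPKM in WT and 3956 to 4513 FPKM in lin28Tg CTLs. Replicate 1 of both genotypes had 383 to 429 FPKM of Xist and almost no Y-linked transcripts, while replicates 2 and 3 expressed Y-linked genes. Sex was thus balanced between the genotypes. Deviations from the genotype means went together between libraries with the same number. A fit with that number as a block is therefore quoted where it changes a result.

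Of 35275 genes in the table, 13030 passed the filter on low reads and were tested with limma on log2(scaled FPKM + 0.5). At a Benjamini-Hochberg adjusted p under 0.05, 566 genes (4.34%) differed between the genotypes (differentially expressed genes, DEGs), with 268 (2.06%) at a raised and 298 (2.29%) at a reduced level in lin28Tg CTLs. The median log2 fold change over all tested genes was 0.002, and the median size among DEGs was 0.97 for the higher and 0.93 for the lower. The change exceeded 1 on the log2 scale in 132 higher and 131 lower genes and exceeded 2 in 32 and 20 (volcano plot of all tested genes). In each of the 566 the 3 lin28Tg values lay outside the range of the 3 WT values. This separation was also found in 24.2% of all tested genes. With the replicate number as a block 1758 genes were called, 915 higher and 843 lower, and all 566 remained among them. The 6 WT and lin28Tg libraries fitted alone gave 225 calls, 221 of them among the 566, and replicates 2 and 3 alone gave 6. Leaving out 1 library left 157 to 614 calls, with the lowest counts without lin28Tg replicate 3 (157), WT replicate 1 (162) or lin28Tg replicate 2 (198). Without WT replicate 2 there were 280 calls, and without WT replicate 3 there were 299. Of the genes called higher, 25 had passed the filter on low reads through the lin28Tg libraries alone, and 1 of the genes called lower had passed through WT alone. A fold change of these depends on the 0.5 FPKM added. Besides Lin28b, those named below are Kif1a, Ccl3, Gpx8, Serpinb9b and Il17re.

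**Figure D1:**
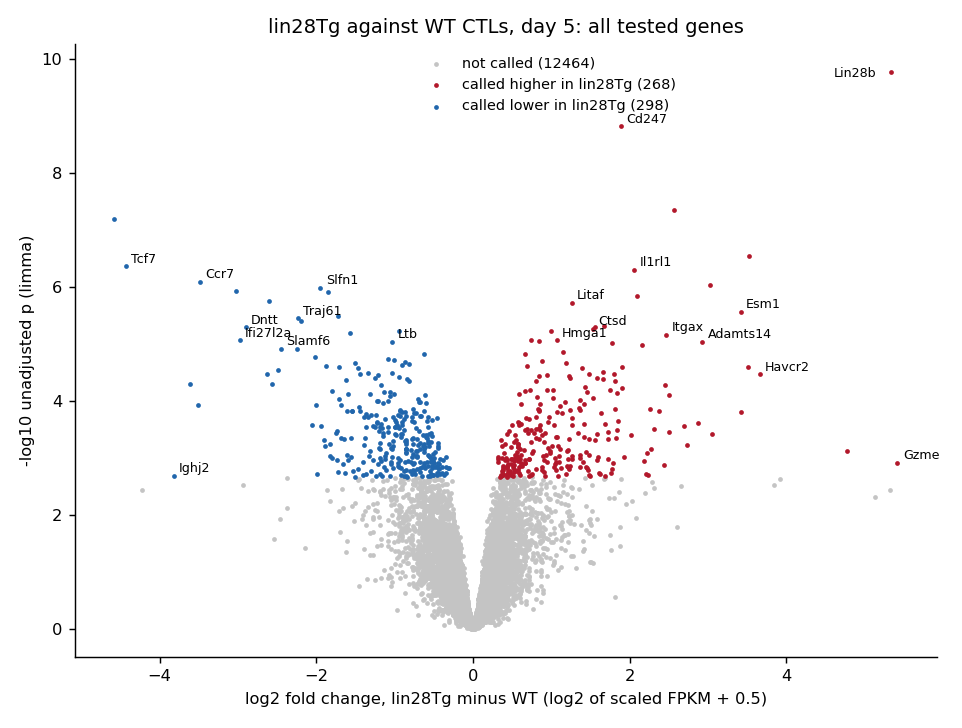
Each point is 1 of 13030 tested genes, with the log2 fold change of lin28Tg over WT on the x axis and -log10 of the unadjusted limma p on the y axis. Red points are the 268 genes called higher and blue points the 298 called lower in lin28Tg CTLs, with Tcf7 at -4.43, Ccr7 at -3.49, Esm1 at 3.42 and Il1rl1 at 2.06.

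Among the genes that were higher in lin28Tg CTLs with the smallest adjusted p were a signaling chain of the T cell receptor, a cytokine receptor, a chromatin protein, lysosomal proteins and genes of low level in T cells. Apart from Lin28b, the order began with Cd247, the zeta chain of the receptor, at 84.4, 80.1 and 80.5 FPKM in WT and 309.7, 261 and 305 FPKM in lin28Tg CTLs (log2 fold change 1.89 ± 0.078, limma adjusted p = 9.99e-06). Next came Lgals3, the lectin galectin-3, at 83.4, 95 and 91.75 FPKM and 456, 629 and 479 FPKM (log2 fold change 2.57 ± 0.16, limma adjusted p = 1.92e-04), and Prf1, perforin, at 23.2, 26.5 and 14.8 FPKM and 171, 307 and 254 FPKM (log2 fold change 3.53 ± 0.27, limma adjusted p = 7.60e-04). All 3 were several-fold apart between the genotypes. Il1rl1, which encodes the IL-33 receptor ST2, measured 0.183, 0.291 and 0.4085 FPKM in WT and 2.26, 2.94 and 2.88 FPKM in lin28Tg CTLs, so that the groups did not overlap (log2 fold change 2.06 ± 0.16, limma adjusted p = 9.44e-04). Esm1, a secreted proteoglycan, went from 0.865, 0.6325 and 0.233 FPKM to 9.31, 12 and 9.56 FPKM, 17.9-fold in the means (log2 fold change 3.42 ± 0.33, limma adjusted p = 0.00226). Itgax, the integrin subunit CD11c, was at 0.330, 0.407 and 0.0268 FPKM in WT and 4.43, 2.12 and 4.20 FPKM in lin28Tg CTLs (log2 fold change 2.47 ± 0.27, limma adjusted p = 0.00332). These 3 genes were thus near or under 1 FPKM in every WT library and above 2 FPKM in every lin28Tg library. At higher levels, Ctsd, the lysosomal aspartic protease cathepsin D, measured 279, 274 and 196 FPKM in WT against 575, 785 and 719 FPKM (log2 fold change 1.53 ± 0.16, limma adjusted p = 0.00308). Litaf, a protein of late endosomal membranes, measured 46, 35.8 and 37.9 FPKM against 87.6, 103 and 86.9 FPKM (log2 fold change 1.26 ± 0.12, limma adjusted p = 0.00164). Hmga1, an AT-hook protein of chromatin, was 168, 148 and 139 FPKM in WT and 287, 302 and 332 FPKM in lin28Tg CTLs (log2 fold change 1.07 ± 0.12, limma adjusted p = 0.00365). Hopx, a homeodomain cofactor without DNA binding of its own, was 40.4, 46.3 and 40.6 FPKM and 69.6, 77.3 and 72.5 FPKM (log2 fold change 0.84 ± 0.095, limma adjusted p = 0.00365). For all 4 the lowest lin28Tg library exceeded the highest WT library. Further genes in this order were Adamts14, a procollagen protease (2.93 ± 0.33), the CDC20 homolog Cdc20b (2.09 ± 0.19) and Smpdl3b, a membrane-anchored phosphodiesterase (1.78 ± 0.20). They also included the kinesin motor Kif1a (1.67 ± 0.17) and Dennd1b, a Rab exchange factor (0.74 ± 0.083). Gene models without a name were passed over. All 15 remained called whichever of the 6 libraries was left out. They had been picked for a small adjusted p in these same libraries, and the let-7Tg libraries stayed in each fit. The kept calls therefore say little about stability.

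The genes that were lower in lin28Tg CTLs with the smallest adjusted p were of mixed kinds. They included Dapl1, death-associated protein-like 1, a transcription factor and a homing receptor. Dapl1 was at 23, 8.93 and 15.3 FPKM in WT and 0.0840, 0.154 and 0.146 FPKM in lin28Tg CTLs, 123-fold lower in the means (log2 fold change -4.58 ± 0.29, limma adjusted p = 2.07e-04). Tcf7, which encodes the transcription factor TCF-1 (chromosome 11, 52252371 to 52283014, minus strand on GRCm38), was at 159.5, 116.5 and 173 FPKM in WT and 8.6, 2.93 and 8.79 FPKM in lin28Tg CTLs, 22.1-fold lower in the means (log2 fold change -4.43 ± 0.35, limma adjusted p = 9.44e-04). Ccr7, the receptor that guides T cells into lymph nodes, was at 37.6, 22.2 and 49.7 FPKM and 3.02, 2.69 and 1.98 FPKM (log2 fold change -3.49 ± 0.30, limma adjusted p = 0.00134). For Dapl1, Tcf7 and Ccr7 the lowest WT library was several-fold above the highest lin28Tg library. Dntt, the terminal transferase that adds bases at the joins of antigen receptor genes, measured 8.64, 4.83 and 10.9 FPKM in WT and 0.842, 0.339 and 0.623 FPKM in lin28Tg CTLs, 13.5-fold lower in the means (log2 fold change -2.90 ± 0.30, limma adjusted p = 0.00301). Aqp3, a channel for water and glycerol, measured 10.6, 7.79 and 13.4 FPKM and 1.87, 1.62 and 1.87 FPKM (log2 fold change -2.20 ± 0.22, limma adjusted p = 0.00273). Wls, which carries Wnt proteins to the surface, measured 6.10, 5.80 and 4.96 FPKM and 0.927, 1.44 and 1.595 FPKM (log2 fold change -1.72 ± 0.17, limma adjusted p = 0.00250). No lin28Tg value of these genes reached the lowest WT value. Ltb, the membrane-bound cytokine lymphotoxin beta, fell from 223, 167 and 201 FPKM to 97.7, 97.55 and 81.1 FPKM (log2 fold change -1.03 ± 0.12, limma adjusted p = 0.00365). The interferon-induced Ifi27l2a fell from 68.1, 49.7 and 137 FPKM to 12.3, 7.38 and 8.08 FPKM (log2 fold change -2.98 ± 0.33, limma adjusted p = 0.00365). The leading named genes also comprised Slfn1, Ms4a6b and Traj61, which return below with their families. With them came the epoxide hydrolase Ephx1 (-1.57 ± 0.17) and Fgf13, an intracellular member of the fibroblast growth factor family (-0.94 ± 0.10). All 13 remained called without any 1 of the 6 libraries, which their choice by small adjusted p in the same data made likely.

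**Figure D2:**
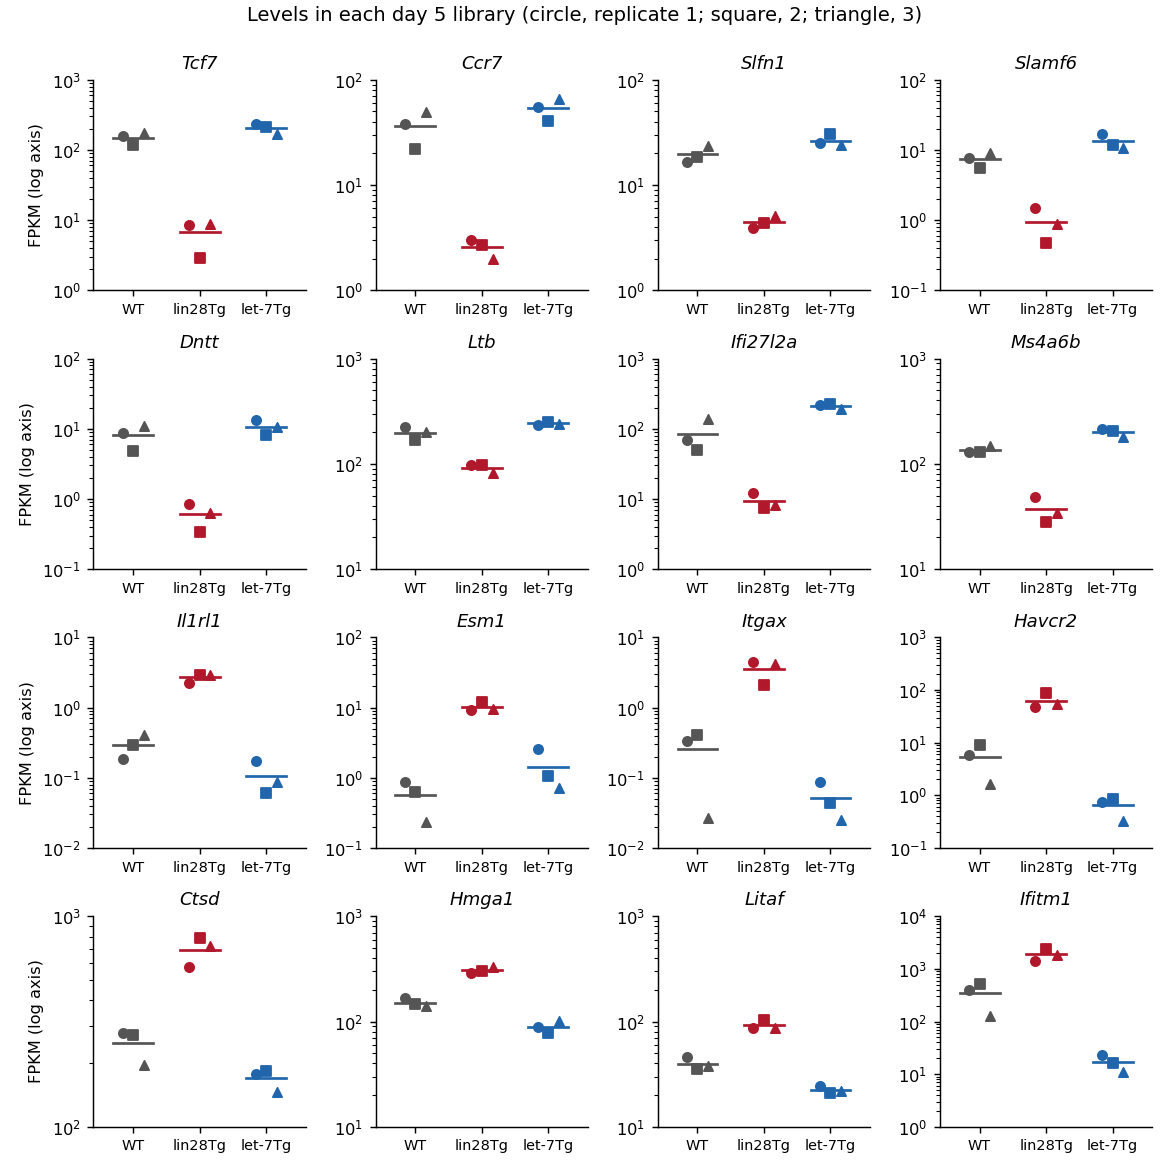
Each panel gives the FPKM of 1 gene on a log axis in the 3 libraries of each day 5 genotype, with circles, squares and triangles for replicates 1, 2 and 3 and a line at the mean. In the first 8 panels, from Tcf7 to Ms4a6b, all 3 lin28Tg values lie under the WT values, and in the other 8, from Il1rl1 to Ifitm1, all 3 lie above them.

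Counts in 26 lists of genes with known roles, 1052 tested members in all, place these genes in their pathways. Of the members 73 were called higher and 61 lower, 12.7% against the 4.34% of all tested genes, and 432 DEGs belonged to no list. Granule genes and let-7 targets held the largest shares of higher calls, and costimulatory receptors, chemokine genes and interferon-response genes those of lower calls (bar chart of called members). The lists were drawn up with results of these data known, and their counts are a description.

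**Figure D3:**
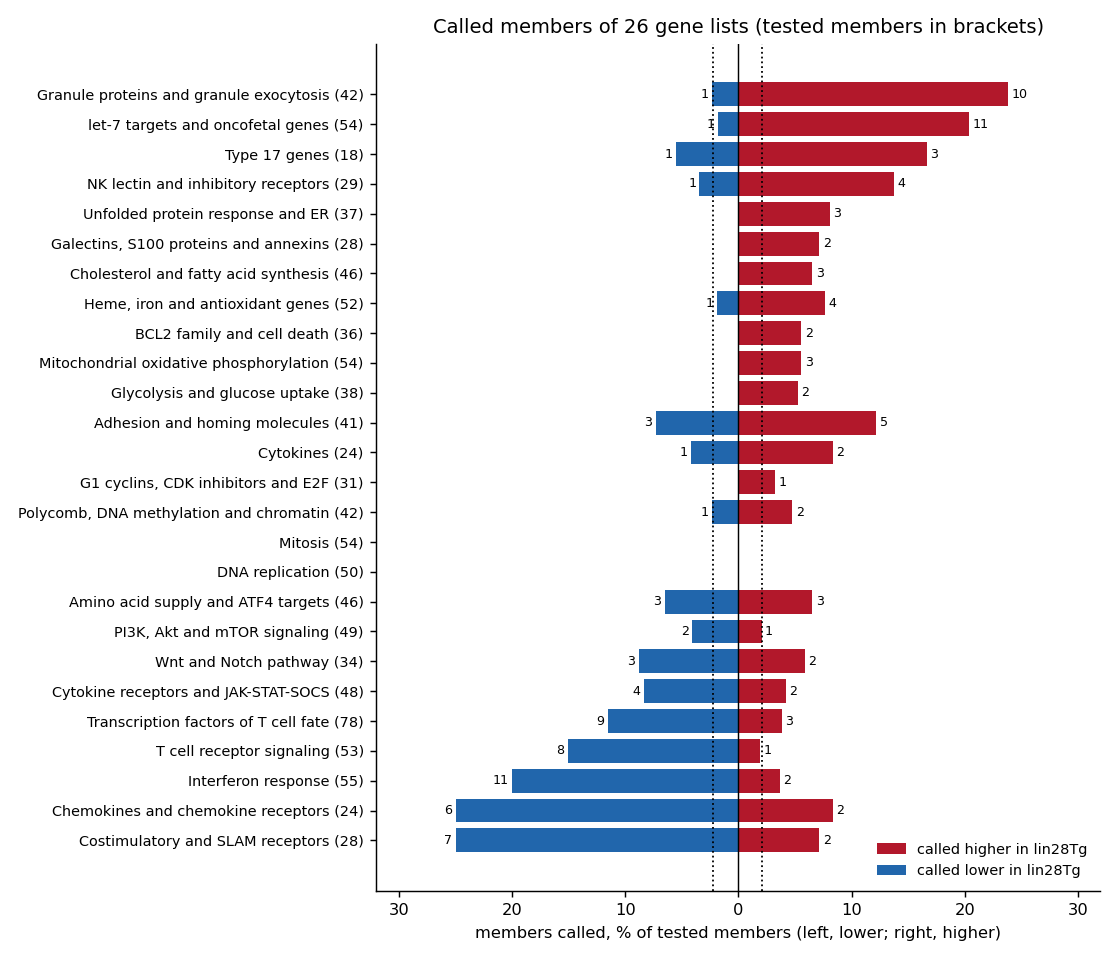
Bars give the percent of the tested members of each list called higher (red, right) or lower (blue, left) in lin28Tg CTLs, with the number called at the end of the bar and the number tested in brackets. Dotted lines mark the shares over all tested genes, 2.06% higher and 2.29% lower. The granule list has 10 of 42 members called higher, the interferon list 11 of 55 called lower, and the DNA replication and mitosis lists have none called.

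Of 42 tested genes of lytic granules and their exocytosis, 10 were called higher and 1 lower, and the median log2 fold change was 0.17. The rise covered contents of the granules and proteins of their transport. Serpinb9, the inhibitor that protects CTLs from their own granzyme B, measured 33, 51.2 and 24.6 FPKM in WT and 76.2, 126 and 142 FPKM in lin28Tg CTLs (log2 fold change 1.72 ± 0.31, limma adjusted p = 0.0201). Sytl2 (0.95 ± 0.14, limma adjusted p = 0.00957) and Rab27a (0.66 ± 0.096, limma adjusted p = 0.00974), which bring granules to the plasma membrane, rose by less, as did Nkg7 (0.58 ± 0.12, limma adjusted p = 0.0348). Within the granzyme cluster, Gzme was at 2.83, 8.16 and 0.1175 FPKM in WT and 17.3, 408 and 168 FPKM in lin28Tg CTLs (log2 fold change 5.42 ± 1.2, limma adjusted p = 0.0375). Gzmf was at 2.71, 4.74 and 0.0599 FPKM and 15.65, 190.4 and 55 FPKM (log2 fold change 4.78 ± 0.97, limma adjusted p = 0.0303). For both genes lin28Tg replicate 1 was more than 3-fold below the other lin28Tg libraries and WT replicate 3 was close to 0. Their neighbours Gzmc, Gzmd and Gzmg, which are close copies, had limma adjusted p of 0.0585, 0.0655 and 0.0775 without the block and 0.00915, 0.0251 and 0.0237 with it. Reads between these copies could have been split by the counting. The 1 member called lower was Ctss, the cysteine protease cathepsin S, at 23.6, 18.05 and 34.9 FPKM in WT and 7.86, 4.87 and 8.545 FPKM in lin28Tg CTLs (log2 fold change -1.71 ± 0.26, limma adjusted p = 0.0114), against the rise of Ctsd. With the replicate block 16 members were called higher and 4 lower. Of the 13 called granule genes examined without 1 library each, Prf1, Gzmb, Gzmk, Ctsd, Sytl2, Rab27a and Ctss remained called in every case, and the other 6 (Gzme, Gzmf, Nkg7, Serpinb9, Serpinb9b and Serpinb1b) reached an adjusted p of up to 0.134. Lost granule calls numbered 6, 3 and 6 without WT replicates 1, 2 and 3 in turn and 5 and 5 without lin28Tg replicates 2 and 3 in turn.

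Receptors that natural killer (NK) cells also carry, and inhibitory receptors, were called higher in 4 of 29 tested members and lower in 1, with a median log2 fold change of 0.34. Havcr2, the inhibitory receptor TIM-3, measured 5.87, 8.89 and 1.63 FPKM in WT and 47.4, 87 and 53.8 FPKM in lin28Tg CTLs (log2 fold change 3.66 ± 0.49, limma adjusted p = 0.00682). Fcer1g, the signaling chain of activating NK and Fc receptors, measured 6.59, 7.27 and 2.20 FPKM and 22.05, 102 and 69.8 FPKM (log2 fold change 3.42 ± 0.56, limma adjusted p = 0.0143). Klrb1c, the lectin NK1.1, measured 17.2, 40.6 and 8.35 FPKM and 93.9, 60.8 and 158 FPKM (log2 fold change 2.44 ± 0.53, limma adjusted p = 0.0387). The groups did not overlap for any of these. The spread within lin28Tg CTLs was wide for Fcer1g, where replicate 1 was lowest, and for Klrb1c, where replicate 3 was highest. Klra5, a lectin of the multicopy Ly49 family whose reads may be shared with its copies, was at 1.915, 2.86 and 1.66 FPKM and 10.8, 43 and 8.80 FPKM (log2 fold change 2.73 ± 0.53, limma adjusted p = 0.0265). Nt5e, the ectonucleotidase CD73, was called lower (-0.96 ± 0.21, limma adjusted p = 0.0405). The defining NK markers Ncr1, Klra8 and Fcgr4 were under 1 FPKM in all 6 libraries, and whether they differed was not tested. The sum of the 5 NK markers, to which Klrb1c belongs, was 67.3 to 94.0 FPKM in WT and 138 to 300 FPKM in lin28Tg CTLs. Klrd1, the most abundant member with no call, had a log2 fold change of -0.30 ± 0.16 (limma adjusted p = 0.335).

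Adhesion and homing genes moved in both directions, with 5 called higher and 3 lower of 41 tested members and a median of 0.02. The higher ones were the integrin subunits Itgax, Itgav (1.22 ± 0.24, limma adjusted p = 0.0298), Itgal (0.32 ± 0.068, adjusted p = 0.0352) and Itgam (1.58 ± 0.34, adjusted p = 0.0358), together with the adhesion receptor Adgrg1 (1.79 ± 0.39, adjusted p = 0.0373). The lower ones included Cd200 and Klf2, a transcription factor of naive and recirculating T cells (-1.73 ± 0.37, adjusted p = 0.0352). Over the NK, inhibitory and adhesion genes, Havcr2 and Itgax kept their calls without any 1 library, and the other 10 of 12 examined lost theirs in at least 1 case, with adjusted p of up to 0.140. Lost calls of this group numbered 9, 6 and 9 without WT replicates 1, 2 and 3 in turn and 5, 7 and 8 without lin28Tg replicates 1, 2 and 3 in turn. With the replicate block the NK and inhibitory list had 11 members called higher and 4 lower and the adhesion list 9 and 9.

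Myeloid markers summed to 4.78 to 7.75 FPKM in WT and 9.90 to 14.1 FPKM in lin28Tg CTLs. Itgam, called higher above, is part of this sum and Itgax is not. Of the 10 markers, 7 (Lyz2, Csf1r, Cd14, Adgre1, Mpeg1, H2-Aa and Cd74) were under 1 FPKM in every library. All 6 erythroid markers and 4 of 6 stromal or platelet markers were also under 1 FPKM. Pecam1, the adhesion molecule CD31, which is among the stromal markers and is also made by lymphocytes, was lower in lin28Tg CTLs, at 18.5, 13.4 and 12.7 FPKM in WT and 3.32, 6.62 and 2.51 FPKM (log2 fold change -1.75 ± 0.32, limma adjusted p = 0.0208). The part of other cells in these results was not tested beyond these levels, and in bulk samples fewer cells of a kind and less RNA per cell cannot be told apart.

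Among the chemokine genes called, both ligands were higher and all 6 receptors were lower in lin28Tg CTLs. Ccl4, a ligand that CTLs secrete to attract other leukocytes, was at 0.647, 1.21 and 0.822 FPKM in WT and 3.855, 10.1 and 7.58 FPKM in lin28Tg CTLs (log2 fold change 2.45 ± 0.34, limma adjusted p = 0.00837). Ccl3, a related ligand, was also called higher (1.73 ± 0.33, limma adjusted p = 0.0231). The receptors called lower besides Ccr7 were Cxcr3, which guides effector cells to inflamed tissue (19.2, 14.8 and 28.5 FPKM in WT and 6.33, 2.715 and 7.52 FPKM in lin28Tg CTLs, log2 fold change -1.82 ± 0.35, limma adjusted p = 0.0255) and Cxcr4 (-1.80 ± 0.38, adjusted p = 0.0349). The rest of the lower group was Ccr4 (-1.40 ± 0.30, adjusted p = 0.0371), the sphingosine phosphate receptor S1pr4 (-0.72 ± 0.16, adjusted p = 0.0419) and the lysophospholipid receptor P2ry10 (-0.94 ± 0.13, adjusted p = 0.00715). Of the 24 tested genes of this list 2 were thus higher and 6 lower, with a median of -0.15. Ccl4, Ccr7 and P2ry10 remained called without any 1 library and the other 5 did not, with adjusted p of up to 0.153. The lost chemokine calls were 5, 2 and 4 without WT replicates 1, 2 and 3 in turn and 2, 3 and 3 without lin28Tg replicates 1, 2 and 3 in turn. The replicate block gave 6 higher and 9 lower.

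In the list of 24 tested cytokines, Ifng and Tnfsf9, the ligand 4-1BBL (0.91 ± 0.19, limma adjusted p = 0.0358), were called higher and Ltb lower, with a median of 0.30. Cytokine receptors and their signaling genes had 2 of 48 members called higher, Il1rl1 and the IL-18 receptor subunit Il18rap (0.66 ± 0.14, adjusted p = 0.0377). The 4 called lower were Il10ra (-0.75 ± 0.12, adjusted p = 0.0145) and Il6st, the shared chain gp130 (-1.15 ± 0.21, adjusted p = 0.0219), with both chains of the type I interferon receptor. These were Ifnar1 (-0.45 ± 0.088, adjusted p = 0.0282) and Ifnar2 (-0.71 ± 0.15, adjusted p = 0.0338). Il7r, the IL-7 receptor that is known for its loss in effector cells, had 24.9, 21.3 and 17 FPKM in WT and 10.5, 11.8 and 3.93 FPKM in lin28Tg CTLs and was not called (log2 fold change -1.28 ± 0.46, limma adjusted p = 0.162), though it was with the replicate block (adjusted p = 0.0116). With the block the receptor list had 4 higher and 9 lower and the cytokine list 5 and 4. Il1rl1 and Ltb kept their calls without any 1 library, and the other 7 lost theirs in at least 1 case, all of them without WT replicate 1. In the cytokine lists losses were 7, 5 and 5 without WT replicates 1, 2 and 3 in turn and 2, 3 and 4 without lin28Tg replicates 1, 2 and 3 in turn.

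Proximal T cell receptor signaling genes were called lower in 8 of 53 members and higher in 1, Cd247, with a median of -0.04. Dgka, the diacylglycerol kinase that dampens signals from the receptor, measured 125, 112 and 105 FPKM in WT and 56.5, 42.4 and 46 FPKM in lin28Tg CTLs (log2 fold change -1.18 ± 0.17, limma adjusted p = 0.00835). Cd5, a surface protein that also restrains receptor signals, measured 25.1, 19.95 and 23.7 FPKM and 10.8, 4.52 and 7.49 FPKM (log2 fold change -1.55 ± 0.25, limma adjusted p = 0.0141). For both genes every lin28Tg library was under every WT library. Lower levels were also called for the related Cd6 (-1.82), the adhesion receptor Cd2 (-0.87), the phosphatase Ptpn6 (-0.73), the adaptor Sla (-0.91), the coreceptor chain Cd8b1 (-0.62) and the transcription factor Nfatc1 (-0.53), with adjusted p between 0.0141 and 0.0371. The 8 genes thus include restraints on the receptor as well as parts of its machinery. The replicate block called 7 members higher and 12 lower. Dgka and Cd247 alone among the 9 remained called without any 1 library. Of the other 7 the losses were 6, 3 and 2 without WT replicates 1, 2 and 3 in turn and 5 and 7 without lin28Tg replicates 2 and 3 in turn.

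Costimulatory receptors of the TNF receptor and SLAM families were called lower in 7 of 28 members and higher in 2, with a median of -0.14. Slamf6, the SLAM receptor Ly108, had 7.66, 5.54 and 8.99 FPKM in WT and 1.49, 0.466 and 0.885 FPKM in lin28Tg CTLs (log2 fold change -2.45 ± 0.29, limma adjusted p = 0.00432). Cd27, a costimulator of naive and memory cells, had 164, 122 and 148 FPKM and 69.5, 35.6 and 64.4 FPKM (log2 fold change -1.34 ± 0.22, limma adjusted p = 0.0155). Tnfrsf9, the activation-induced costimulator 4-1BB, rose from 373, 331 and 243 FPKM to 533, 780.2 and 642 FPKM (log2 fold change 1.11 ± 0.17, limma adjusted p = 0.0133), as did Slamf7 (0.84 ± 0.16, adjusted p = 0.0228). The other genes called lower were Cd84 (-0.78), Tnfrsf4 (-1.19), Slamf1 (-0.92), the death receptor Fas (-1.04) and Tnfrsf14 (-0.55), with adjusted p between 0.0155 and 0.0485. The replicate block gave 4 higher and 8 lower. Slamf6 alone of the 9 remained called without any 1 library. Of the other 8 the losses were 7, 4 and 4 without WT replicates 1, 2 and 3 in turn and 1, 6 and 7 without lin28Tg replicates 1, 2 and 3 in turn.

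Of 78 tested transcription factors of T cell fate, 9 were called lower and 3 higher, with a median of 0.08. Beside Tcf7, the lower group held Zbtb20, a repressor of the BTB zinc finger family (9.45, 8.51 and 11.4 FPKM in WT and 4.79, 3.18 and 4.62 FPKM in lin28Tg CTLs, log2 fold change -1.09 ± 0.17, limma adjusted p = 0.0119). It also held Foxp1, which maintains T cell quiescence (79.98, 87.2 and 77.9 FPKM and 42.6, 47.9 and 55 FPKM, log2 fold change -0.69 ± 0.11, limma adjusted p = 0.0122). Neither overlapped between the genotypes. Bach2, a repressor of effector genes (-1.0 ± 0.17, adjusted p = 0.0164), Klf3 (-1.90 ± 0.36, adjusted p = 0.0232) and Klf2 were lower as well. So were Ets1 (-0.62 ± 0.12, adjusted p = 0.0259), Sox4 (-0.61 ± 0.12, adjusted p = 0.0272) and Irf4, which is induced by the T cell receptor (-0.96 ± 0.20, adjusted p = 0.0349). Hopx, Id2 and Runx2 (0.91 ± 0.21, adjusted p = 0.0455) were higher. Runx3, the abundant factor of the CD8 lineage, had a log2 fold change of 0.08 ± 0.13 (adjusted p = 0.788). Lef1, the relative of Tcf7, had one of -0.30 ± 0.15 (adjusted p = 0.302, 0.0932 with the replicate block). The block called 13 members higher and 16 lower. Hopx, Tcf7, Zbtb20 and Foxp1 remained called without any 1 library and the other 8 did not, with adjusted p of up to 0.157. Among transcription factors, losses were 8, 3 and 6 without WT replicates 1, 2 and 3 in turn and 2, 8 and 7 without lin28Tg replicates 1, 2 and 3 in turn.

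Several gene families held only lower calls, and they were picked by symbol after their values had been seen. Of 44 tested V and J segments of the T cell receptor alpha locus 10 were called lower and none higher, 41 were below 0, and the median log2 fold change was -0.76. Traj61 measured 12.6, 11.8 and 22.6 FPKM in WT and 2.885, 2.64 and 2.50 FPKM in lin28Tg CTLs (log2 fold change -2.24 ± 0.23, limma adjusted p = 0.00256). Trav14d-1 measured 5.66, 5.63 and 8.06 FPKM and 1.38, 1.26 and 0.8365 FPKM (log2 fold change -2.02 ± 0.25, limma adjusted p = 0.00532). The constant gene Trac, by contrast, had a log2 fold change of -0.16 ± 0.13 (adjusted p = 0.55), and none of 16 beta chain segments was called (4 at an unadjusted limma p under 0.05 and 0 called with precision weights). Of 5 tested immunoglobulin heavy chain segments 2 were called lower. Ighj3 was at 68.9, 56.4 and 82.5 FPKM in WT and 4.33, 1.98 and 13.1 FPKM in lin28Tg CTLs (log2 fold change -3.61 ± 0.50, limma adjusted p = 0.00825). Ighj2 was at 35.6, 37.3 and 54.2 FPKM and 5.77, 0 and 7.51 FPKM (log2 fold change -3.82 ± 0.90, limma adjusted p = 0.0486). Ighm, at 236, 184 and 228 FPKM and 134, 28.7 and 89.7 FPKM, was not called (log2 fold change -1.55 ± 0.45, limma adjusted p = 0.0939) except with the replicate block (adjusted p = 0.0284). The B cell markers Cd79a, Ms4a1 and Pax5 were under 1 FPKM in all 6 libraries. Segments are short and share sequence, so the value of any 1 segment is uncertain.

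All 9 Gimap genes, GTPases that support the survival of lymphocytes, were below 0, 5 of them called lower, with a median of -0.40. Gimap4 was at 647, 686.5 and 771 FPKM in WT and 491, 409.9 and 458 FPKM in lin28Tg CTLs (log2 fold change -0.57 ± 0.095, limma adjusted p = 0.0155). Gimap3 was at 410.1, 378 and 375 FPKM and 276, 175.5 and 212 FPKM (log2 fold change -0.77 ± 0.15, limma adjusted p = 0.0255). Of 7 Ms4a genes, which encode membrane proteins of the CD20 family, 5 were called lower, with a median of -1.30. They were led by Ms4a6b (129.7, 130.4 and 148 FPKM and 48.3, 28.2 and 34 FPKM, log2 fold change -1.85 ± 0.16, limma adjusted p = 0.00134) and Ms4a4b (394, 404 and 453 FPKM and 209.5, 96 and 175 FPKM, log2 fold change -1.39 ± 0.23, limma adjusted p = 0.0155). For all 4 genes the ranges of the genotypes did not meet. Of 8 Ifi200 genes, the interferon-inducible DNA sensors that lie side by side in the genome and resemble each other in sequence, 5 were called lower, with a median of -0.90. Among them were Mndal (100.1, 97.3 and 98.6 FPKM and 62.3, 44.75 and 49 FPKM, log2 fold change -0.87 ± 0.11, limma adjusted p = 0.00597), Ifi213 (-1.44) and Ifi203 (-1.45). The class II accessory genes, which carry out or regulate the loading of peptide onto MHC class II, had 4 of 5 members called lower. H2-Ob was at 4.15, 2.73 and 3.69 FPKM and 0.605, 0.116 and 0.3315 FPKM (log2 fold change -2.25 ± 0.26, limma adjusted p = 0.00432). H2-DMa was at 26.4, 18.1 and 26.1 FPKM and 9.80, 4.82 and 8.095 FPKM (log2 fold change -1.55 ± 0.25, limma adjusted p = 0.0141). The presenting gene H2-Ab1 was not called (log2 fold change -0.70 ± 0.37, limma adjusted p = 0.335), though it was with the block (adjusted p = 0.0174). Granzymes, with 4 of 9, and Serpinb genes, with 3 of 6, were families with higher calls only. Among the 13 family genes examined, 8 remained called without any 1 library (Traj61, Trav14d-1, Ighj3, Ms4a6b, Ifi203, Ifi213, Mndal and H2-Ob), and the other 5 reached an adjusted p of up to 0.129. For the family genes losses were 4, 2 and 2 without WT replicates 1, 2 and 3 in turn and 2 and 3 without lin28Tg replicates 2 and 3 in turn.

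Interferon-response genes held mostly lower calls, 11 of 55 tested members against 2 higher, with 46 below 0 and a median of -0.41 against 0.002 for all tested genes. The leading members were Slfn1, a growth regulator of the Schlafen family (16.4, 18.4 and 23.6 FPKM in WT and 3.93, 4.38 and 5.05 FPKM in lin28Tg CTLs, log2 fold change -1.95 ± 0.17, limma adjusted p = 0.00134), and Ifi27l2a, given above. Slfn2, a paralog of Slfn1, was at 65.8, 69 and 75.6 FPKM in WT and 41.8, 25.4 and 30.8 FPKM in lin28Tg CTLs (log2 fold change -1.06 ± 0.15, limma adjusted p = 0.00986). Both Schlafen genes were lower in every lin28Tg library than in any WT library. Trim30a (-0.88 ± 0.16, adjusted p = 0.0194) and the GTPase Gbp2 (-1.32 ± 0.27, adjusted p = 0.0302) were called lower. The rest were Ifit2 (-0.85), Xaf1 (-0.72), the immunoproteasome subunit Psmb9 (-0.38), Dtx3l (-0.40), Ifi27 (-0.58) and Irf9, the DNA-binding part of the complex that reads type I interferon signals (-0.58). Irf7, a transcription factor of the interferon response (-0.38 ± 0.098, adjusted p = 0.0686), was not called except with the block (adjusted p = 0.0263). Against this direction went 2 genes of the Ifitm family, which is known for proteins that hinder virus entry at membranes. Ifitm1 was at 396, 513 and 127 FPKM in WT and 1442, 2395 and 1801 FPKM in lin28Tg CTLs (log2 fold change 2.69 ± 0.47, limma adjusted p = 0.0181). Ifitm10 was at 1.31, 1.36 and 0.849 FPKM and 4.795, 3.84 and 8.72 FPKM (log2 fold change 1.90 ± 0.27, limma adjusted p = 0.00923). The replicate block called 21 members lower and 6 higher. Slfn1, Slfn2, Ifi27l2a and Ifitm10 remained called without any 1 library, and the other 9 did not, with adjusted p of up to 0.157. Interferon-response losses were 7, 6 and 5 without WT replicates 1, 2 and 3 in turn and 5, 7 and 9 without lin28Tg replicates 1, 2 and 3 in turn.

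The medians of 6 metabolic lists lay between 0.02 and 0.30, and calls were made in both directions in 2 of them. Of 54 tested genes of mitochondrial oxidative phosphorylation 47 were above 0, with a median of 0.15. Only Ndufb9 (0.32 ± 0.067), Cox5a (0.53 ± 0.11) and Atp5f1 (0.38 ± 0.085) were called, all higher. With the replicate block 10 were called, none with the 6 WT and lin28Tg libraries alone, and 0 or 1 when any 1 library was left out. Of 37 genes of the unfolded protein response and the endoplasmic reticulum 34 were above 0, with a median of 0.30. Fkbp11 (1.07 ± 0.20), the oxidase Ero1l (1.05 ± 0.23) and the stress sensor Ern1 (0.49 ± 0.12) were called higher, against 0 in the 6 libraries alone and 0 to 2 when 1 library was left out. The chaperone Hspa5 had a log2 fold change of 0.63 ± 0.24 (adjusted p = 0.189). Glycolysis had 2 higher calls of 38 and a median of 0.06. The abundant enzymes without a call were Gapdh at 0.06 ± 0.097 (adjusted p = 0.790) and Ldha at 0.20 ± 0.077 (adjusted p = 0.183). The called members were Gpd2, of the glycerol phosphate shuttle (1.10 ± 0.23), and Slc16a10, a transporter of aromatic amino acids placed in this list with its family (5.40, 5.24 and 3.09 FPKM in WT and 13.1, 19.98 and 19.6 FPKM in lin28Tg CTLs, log2 fold change 1.90 ± 0.24, limma adjusted p = 0.00620). Neither is an enzyme of the glycolytic chain itself. In amino acid supply 41 of 46 members were above 0, with a median of 0.25, and 3 were called in each direction. The stress-induced Nupr1 was called higher (2.43, 1.39 and 1.97 FPKM and 8.57, 5.35 and 5.74 FPKM, log2 fold change 1.59 ± 0.22, limma adjusted p = 0.00715) with Cth and Slc7a3. Ass1, the arginine-making argininosuccinate synthase, was lower (108, 84.3 and 119 FPKM and 50.1, 45.9 and 43 FPKM, log2 fold change -1.08 ± 0.13, limma adjusted p = 0.00572) with Glul and Slc43a1. Hmgcs1 (0.66 ± 0.14), Scd1 (0.70 ± 0.16) and Sult2b1 were higher among 46 genes of cholesterol and fatty acid synthesis, and 12 were called higher and 2 lower with the block and 0 in the 6 libraries alone. Among heme, iron and antioxidant genes 4 of 52 were higher, with Gpx8, Srxn1 and Ftl1 and led by the glutathione transferase Gstm5 (1.81, 2.12 and 0.328 FPKM and 7.91, 9.41 and 9.32 FPKM, log2 fold change 2.51 ± 0.37, limma adjusted p = 0.0104), and the peroxidase Prdx4 was lower. Of the 22 called metabolic genes examined, Slc16a10, Nupr1, Ass1 and Gstm5 remained called without any 1 library and the other 18 did not, with adjusted p of up to 0.166. Metabolic calls lost were 16, 15 and 14 without WT replicates 1, 2 and 3 in turn and 7, 16 and 16 without lin28Tg replicates 1, 2 and 3 in turn.

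Genes of proliferation received few calls. None of 50 DNA replication genes and none of 54 mitosis genes was called, with medians of -0.04 and -0.10 and with 39 of the mitosis genes below 0. At an unadjusted limma p under 0.05 there were 9 and 3, and precision weights on recovered reads called 0 in both lists. Rrm2 was at 0.30 ± 0.096 (limma adjusted p = 0.128, 0.0281 with the replicate block) and Top2a at -0.14 ± 0.11 (adjusted p = 0.558). The block called 3 replication genes and no mitosis gene. In the list of G1 cyclins, inhibitors and E2F factors, Cdkn2b, an inhibitor of the cyclin D kinases, was the only call of 31 (1.46 ± 0.33, adjusted p = 0.0411). The chromatin list, with 42 members, had Jarid2, a cofactor of Polycomb repressive complex, called higher (49.5, 47.5 and 41.5 FPKM in WT and 74.5, 68.8 and 77.6 FPKM in lin28Tg CTLs, log2 fold change 0.73 ± 0.10, limma adjusted p = 0.00957), along with Hmga1, and Chd3 lower (-1.18 ± 0.25). PI3K, Akt and mTOR signaling genes had 1 higher call of 49, Sgk1 (1.27 ± 0.22, adjusted p = 0.0178), and 2 lower ones, Sesn1 and Castor1, which both restrain mTORC1. These few calls stand beside the 4.34% called over all tested genes. In this list 20 members were above 0 and 29 below, with a median of -0.03. The 6 WT and lin28Tg libraries alone gave 1 higher and 0 lower calls in it. The Wnt and Notch list, with 34 members, had Nkd1 and Wnt10b higher and Tcf7, Tle1 and Axin2 lower. Pmaip1 was among 2 calls in 36 BCL2 family and cell death genes, and Lgals3 and Anxa2 were the calls among 28 galectins, S100 proteins and annexins, all higher. Of 12 of these calls examined, Jarid2 alone remained called without any 1 library. Among the other 11 the losses were 11, 9 and 8 without WT replicates 1, 2 and 3 in turn and 2, 11 and 10 without lin28Tg replicates 1, 2 and 3 in turn. No call was made among 78 ribosomal protein genes, which had a median of -0.03, with 8 at an unadjusted limma p under 0.05 and 0 called with precision weights.

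Type 17 genes are the last group, and 16 of its 18 tested members were above 0, with a median of 0.43. Without the members that passed the filter through the lin28Tg libraries alone, 14 of 16 were above 0, with a median of 0.36. The largest call, 5830411N06Rik, is a gene model of the scavenger receptor family, at 0.485, 1.07 and 0.670 FPKM in WT and 8.79, 9.21 and 9.195 FPKM in lin28Tg CTLs (log2 fold change 3.03 ± 0.26, limma adjusted p = 0.00134). Cd163l1, the scavenger receptor SCART1 of gamma delta T cells, was at 2.18, 2.995 and 1.43 FPKM and 6.22, 5.415 and 7.24 FPKM (log2 fold change 1.42 ± 0.24, limma adjusted p = 0.0178). Both rose at low levels, under 10 FPKM in each library. Il17re, a subunit of the IL-17C receptor, had 2 reads over the 3 WT libraries and 56 over the 3 lin28Tg libraries, and its call rests on the latter. The gamma delta markers Sox13 and Blk were under 1 FPKM in all 6 libraries. Their sum was 0.0805 to 0.148 FPKM in WT and 0.278 to 0.487 FPKM in lin28Tg CTLs, higher in the latter at levels that rest on few reads. The gamma delta receptor constant genes were not analysed here. The replicate block called 7 members higher and 1 lower. Without 1 library 5830411N06Rik and Aqp3 alone remained called in every case. Of the other calls examined the losses were 2 without WT replicate 1 and 1 without lin28Tg replicate 3.

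Genes described as let-7 targets or as oncofetal had 11 of 54 tested members called higher and 1 lower, with 44 above 0 and a median of 0.32. Beside Hmga1, the higher ones included the nucleoside diphosphate kinase Nme6 (8.93, 9.41 and 9.08 FPKM in WT and 15.9, 17.7 and 16 FPKM in lin28Tg CTLs, log2 fold change 0.88 ± 0.11, limma adjusted p = 0.00586) and the G protein subunit Gng5 (44.4, 54.8 and 50.7 FPKM and 96.4, 90.9 and 88.7 FPKM, log2 fold change 0.94 ± 0.12, limma adjusted p = 0.00682). With them came the DNA-binding proteins Arid3a (7.715, 7.45 and 4.85 FPKM and 14.8, 16.4 and 15.3 FPKM, log2 fold change 1.24 ± 0.17, limma adjusted p = 0.00715) and Arid3b (14.1, 13 and 12.5 FPKM and 22.4, 23.7 and 21 FPKM, log2 fold change 0.80 ± 0.11, limma adjusted p = 0.00744). In each of these the lin28Tg values were tightly grouped and the ranges did not meet. Fndc3a (0.85 ± 0.11, adjusted p = 0.00693) and the phosphatase Dusp4 (9.93, 13.5 and 7.11 FPKM and 23.4, 30.3 and 31.8 FPKM, log2 fold change 1.53 ± 0.23, limma adjusted p = 0.0109) were also higher, again without overlap. So was Cdc34, the ubiquitin-conjugating enzyme of cell cycle entry (75.2, 67.75 and 83 FPKM and 123.5, 172 and 150.1 FPKM, log2 fold change 1.03 ± 0.18, limma adjusted p = 0.0178). E2f5 (1.11 ± 0.22, adjusted p = 0.0288) and the RNA-binding Igf2bp3 (2.43, 6.11 and 2.82 FPKM and 9.67, 9.57 and 9.10 FPKM, log2 fold change 1.37 ± 0.29, limma adjusted p = 0.0346) were higher with larger adjusted p. The higher members thus include genes of low level, such as Igf2bp3, as well as the abundant Hmga1. The 1 lower member was Igf1r, the insulin-like growth factor receptor, at 5.68, 3.84 and 3.67 FPKM and 2.23, 1.05 and 1.245 FPKM (log2 fold change -1.27 ± 0.27, limma adjusted p = 0.0352). Of the best known targets, Hmga2, Lin28a and Igf2bp1 did not reach the filter. Myc had a log2 fold change of -0.46 ± 0.26 (adjusted p = 0.376) and Mycn one of 2.20 ± 0.58 (adjusted p = 0.0712, 0.0214 with the block). The replicate block called 22 members higher and 3 lower. Hmga1, Nme6, Gng5, Fndc3a, Arid3a, Arid3b and Dusp4 remained called without any 1 library, and the other 4 of 11 examined did not, with adjusted p of up to 0.131. Target calls lost were 4, 3 and 2 without WT replicates 1, 2 and 3 in turn and 1, 4 and 4 without lin28Tg replicates 1, 2 and 3 in turn.

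For each gene the 3′ UTR of its longest coding transcript was searched on the transcribed strand for CTACCTC, the complement of the seed, and for TACCTCA, which pairs with the seed except its last base and ends in an A. Where both overlap they form CTACCTCA, which was counted once as a full match. All 12 called members of the target list had at least 1 match, with 5 in Arid3b, 4 in Arid3a, 3 in Igf1r, 2 each in Cdc34 and Fndc3a and 1 in each of the others. The list was drawn from genes already described as let-7 targets, and its uncalled members were not counted. The matches of its members therefore say nothing about the calls. Sites that match CTACCTCA in called genes of this list, and that of Ccr7 as a gene that fell, are shown with the preceding bases of the transcript strand, coordinates on GRCm38 and the match in capitals.
Arid3a (chr10:79953888-79953917, plus strand, 3′ UTR): cacatgcaaggcaagtttctttCTACCTCA
Cdc34 (chr10:79688105-79688134, plus strand, 3′ UTR): cgtgtgggcctcaggcgacagaCTACCTCA
Igf2bp3 (chr6:49086787-49086816, minus strand, 3′ UTR): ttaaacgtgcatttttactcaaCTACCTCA
Igf1r (chr7:68229103-68229132, plus strand, 3′ UTR): ggcttgtttttcaaacatttatCTACCTCA
Ccr7 (chr11:99144785-99144814, minus strand, 3′ UTR): cttaaccccatcccacttataaCTACCTCA
The same letters thus ended sites in genes that were higher (Arid3a, Cdc34 and Igf2bp3) and in genes that were lower (Igf1r and Ccr7) in lin28Tg CTLs, and the 3′ UTR of Tcf7 held no match.

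Over all genes, 60 of 258 called higher had a match (23.3%), against 50 of 266 called lower (18.8%) and 1965 of 11634 tested genes with a 3′ UTR (16.9%). The other 198 genes called higher had no match in the 3′ UTR searched. Those with a match include Lin28b, the transgene, whose annotated 3′ UTR also holds CTACCTCA. They also include both Hmga1 and Hmga1b, whose sites have the same letters. Shares without these genes were not computed. The full match CTACCTCA was in 7.36% of the higher, 3.76% of the lower and 3.67% of all tested genes. Length was close between the called groups, with median 3′ UTRs of 1231, 1236 and 1122 bases, and per kilobase there were 0.205, 0.118 and 0.130 matches in the higher, the lower and all tested genes. By length of the 3′ UTR, the shares in the higher, the lower and all tested genes were 5.00%, 3.28% and 3.76% up to 500 bases and 14.4%, 15.1% and 11.3% up to 1500 bases. Over 1500 bases they were 40.7%, 29.4% and 30.5%, with a match in 44 of 108 higher and 35 of 119 lower genes. The shortest class held 3 of 60 higher and 2 of 61 lower genes with a match. The middle class held 13 of 90 and 13 of 86, and the counts of both classes are too small to compare. Read the other way, the median log2 fold change was 0.00 in 9669 genes without a match, 0.04 in 1598 with 1 and 0.09 in 367 with more, and 49.7%, 55.0% and 62.7% of them were above 0 (plot of cumulative fold changes). Genes called higher made up 2.05%, 2.94% and 3.54% of these classes and genes called lower 2.23%, 2.88% and 1.09%. These classes were not split by length of the 3′ UTR, and longer 3′ UTRs more often held a match, so the part of length was not tested. A match is a run of letters, and no binding was measured.

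**Figure D4:**
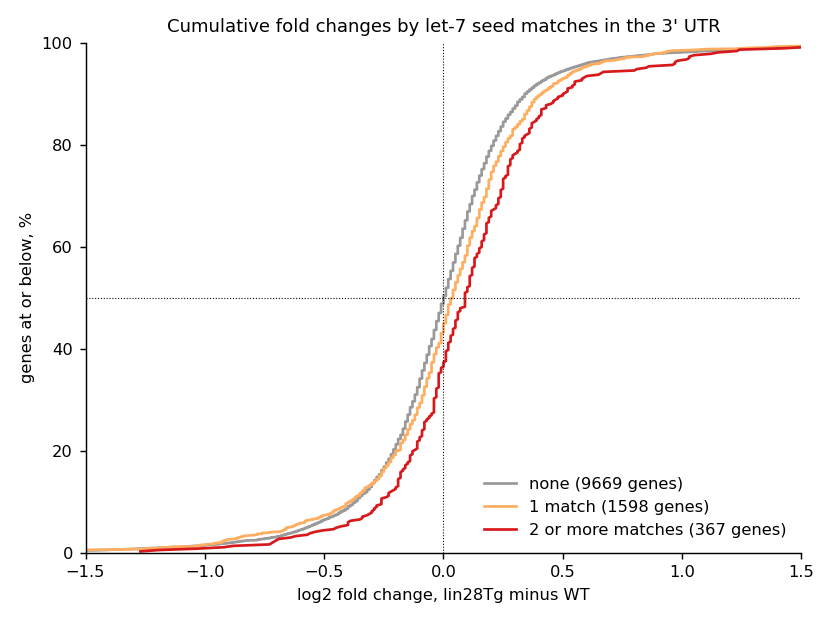
Lines give the percent of genes with a log2 fold change (lin28Tg over WT, x axis) at or below each value, for 9669 genes with no let-7 seed match in the 3′ UTR, 1598 with 1 match and 367 with 2 or more. The lines of genes with matches run to the right of the line of genes without, with medians of 0.04 and 0.09 against 0.00. The classes were not split by length of the 3′ UTR.

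The lin28Tg effect at day 5 was set beside that in naive CD8 T cells and in cells activated for 12 h with anti-CD3 and anti-CD28, each from its own table with 3 libraries per genotype. In naive cells 4481 of 13277 tested genes (33.8%) were called between lin28Tg and WT, 2632 higher and 1849 lower, and at 12 h 1046 of 12239 (8.55%), 762 higher and 284 lower. Of the genes higher at day 5, 133 of 229 tested in naive cells were higher there too and 58 of 215 at 12 h, while 5 and 1 were called lower. Of the genes lower at day 5, 129 of 291 were lower in naive cells and 37 of 277 at 12 h, while 28 and 14 were called higher. A group of 70 genes was called the same way at all 3 stages. The 40 higher genes included Il1rl1, Litaf, Hmga1, Gng5, Arid3a, Cdc34, Serpinb9, Runx2, Il18rap, Itgam and Cd163l1. The 30 lower genes included Dgka, Foxp1, Cd27, Il6st, Ets1, Cd2, P2ry10, Ephx1 and Gimap3. Tcf7 was not in that group, with log2 fold changes of -0.35 in naive cells (adjusted p = 0.00924) and -0.18 at 12 h (adjusted p = 0.519) before the -4.43 of day 5. The naive lin28Tg libraries and 12 h lin28Tg replicate 3 held both Xist (68.2 to 115 FPKM) and Y-linked transcripts (28.5 to 119 FPKM over 4 genes), whereas each other lin28Tg or WT library held 1 kind. WT naive replicate 1 was male where replicates 2 and 3 were female. The part of sex in the stage results was not tested.

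The difference between effects was tested directly in 1 model over 18 lin28Tg and WT libraries. The day 5 effect differed from that at 12 h in 884 of 14120 genes (6.26%), with the day 5 effect above in 299 and below in 585, and from that in naive cells in 2023 of 14120 (14.3%), above in 511 and below in 1512. Above made up 33.8% and 25.3% of these calls, and 19.1% and 13.7% when the libraries were not rescaled. Of the genes called at both times in opposite directions, 15 at 12 h and 33 in naive cells also had a called difference, 14 and 28 of them lower at day 5. Stmn1, the microtubule-destabilizing stathmin of dividing cells, had the smallest adjusted p of these against naive cells. It was at 17.6 ± 0.638 FPKM in WT and 172 ± 40 FPKM in lin28Tg naive cells (mean ± SD, n = 3). The same groups were at 45.6 ± 11 and 121 ± 20.1 FPKM at 12 h and 594 ± 34.4 and 358 ± 73.4 FPKM at day 5. It was thus higher in lin28Tg cells at the first 2 stages and lower at day 5. Ccr7 measured 222 ± 12.1 FPKM in WT and 288 ± 19.6 FPKM in lin28Tg naive cells and 36.5 ± 13.8 and 2.56 ± 0.530 FPKM at day 5, a difference of effects of -3.82 ± 0.32 (adjusted p = 4.46e-06). Jarid2 turned the other way, from 33.0 ± 1.65 and 25.6 ± 3.82 FPKM at 12 h to 46.2 ± 4.18 and 73.6 ± 4.43 FPKM at day 5 (1.13 ± 0.13, adjusted p = 2.05e-04). The 12 h count ranged from 559 to 1784 when 1 day 5 library was left out, with 1784 without WT replicate 3 (918 above and 866 below, where above became the majority), 559 without lin28Tg replicate 3, 562 without WT replicate 1 and 576 without lin28Tg replicate 2.

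**Figure D5:**
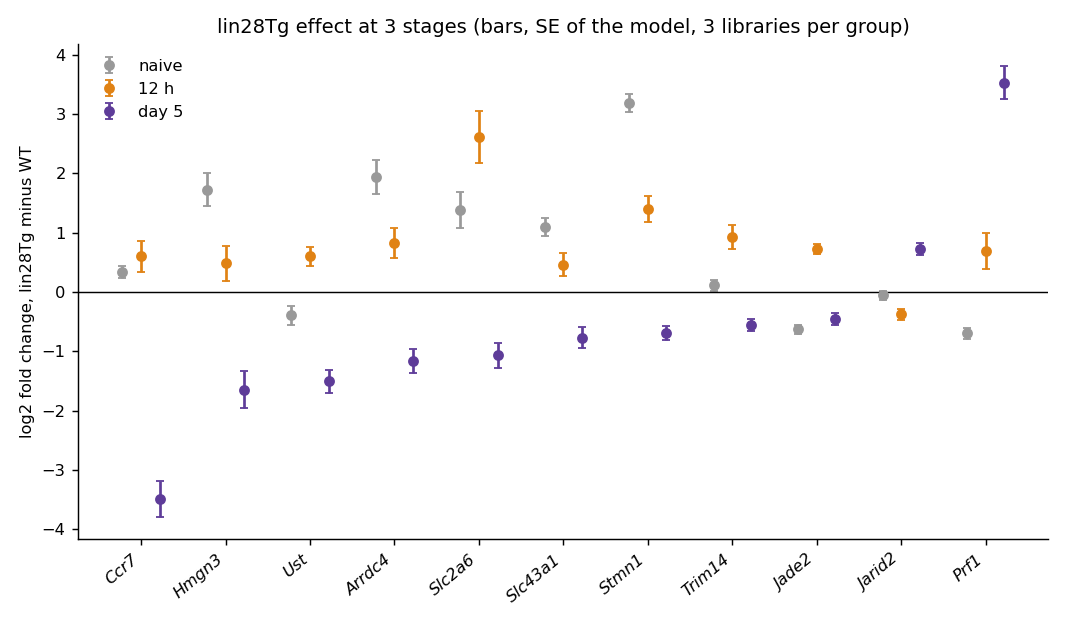
Points give the log2 fold change of lin28Tg over WT for 11 genes in naive cells (grey), at 12 h (orange) and at day 5 (purple), with bars for the SE of the model and 3 libraries per group. Jarid2 and Prf1 are above 0 at day 5, and the other 9 genes are below 0 there and above 0 at 1 or both earlier stages, among them Stmn1 at 3.19, 1.39 and -0.69.

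The let-7Tg CTLs of the same table provide a second set of levels beside the same WT libraries. Tcf7 was at 207 ± 34.7 FPKM in let-7Tg CTLs (mean ± SD, n = 3), with 150 ± 29.6 FPKM in WT and 6.77 ± 3.33 FPKM in lin28Tg CTLs, and Slamf6 at 13.2 ± 3.32, 7.4 ± 1.74 and 0.946 ± 0.514 FPKM in the same order. Havcr2 was at 0.641 ± 0.278, 5.46 ± 3.65 and 62.8 ± 21.2 FPKM, and Il1rl1 at 0.107 ± 0.0599, 0.294 ± 0.113 and 2.69 ± 0.379 FPKM. For these 4 genes the WT mean lay between the means of the transgenic groups. Hmga1 stood at 89.2 ± 12.5, 152 ± 14.8 and 307 ± 23.0 FPKM and Arid3a at 3.89 ± 0.446, 6.67 ± 1.58 and 15.5 ± 0.857 FPKM. Ifitm1 was at 16.9 ± 6.16, 345 ± 198 and 1879 ± 481 FPKM and Dgka at 146 ± 35.6, 114 ± 9.98 and 48.3 ± 7.33 FPKM. The WT mean did not lie in the middle for every called gene. Cd247 had means of 94.9, 81.7 and 292 FPKM in the same order, with both transgenic means above WT. Foxp1 had means of 68.0, 81.7 and 48.5 FPKM, with both transgenic means below WT. How many DEGs had the WT mean in the middle was not counted. Because both transgenic groups are set against the same WT libraries, their distances from WT are not independent.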

How the data were processed

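Transcripts of 27 mouse libraries were measured by RNA-seq, 3 per genotype (WT, lin28Tg, let-7Tg) and stage (naive, 12 h, day 5). Per the labels' processing notes the authors' tools were TopHat2 2.0.9, Bowtie2 2.0.6, HTSeq 0.6.1 and DESeq2, on GRCm38 (mm10), and the deposited values are FPKM per gene. Strand use in counting and the annotation release are not given in the sources used here. The deposited columns of fold changes and p-values, which hold the authors' own comparisons, were not used. FPKM divides by gene length and by the reads of each library, so a few abundant genes can shift all others. Whole reads were recovered from the FPKM steps for 100.0% of 462839 values above 0 (tolerance 0.01 reads), which gave the depths.

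The 9 day 5 libraries were scaled by a trimmed mean of log ratios (30% of ratios and 5% of levels trimmed), filtered to genes with at least 10 reads at the median depth in 3 libraries and 15 reads in all, and fitted in limma 3.58.1 (R 4.3.3) on log2(FPKM + 0.5) with genotype means, an intensity trend and Benjamini-Hochberg adjustment at 0.05. A fold change on this scale understates that of genes of low level. Values after ± are SE of the model for log2 fold changes and SD otherwise (n = 3). Effects at different stages were compared in 1 limma model of 18 libraries. limma's precision weights on recovered reads called 544 genes. Alternatives were pseudocounts of 0.1 and 1, filters, scalings, a fit without trend, the 6 libraries alone, the replicate number as a block, leaving out each library and, added after the data were seen, precision weights and replicates 2 and 3 alone. The paper describes 3 biological replicates per group, and at day 5 replicate 1 differed in sex from replicates 2 and 3. The labels do not say that each replicate came from a separate mouse. If some did not, p-values measure the spread between these samples. No pair of libraries within a genotype agreed within counting noise (mean chi square per gene 20.3 to 58.1). Same-numbered WT and lin28Tg libraries deviated together (Pearson r of 0.355, 0.285 and 0.368 across 13030 genes), as found in the data and not stated by the labels. Other pairs had -0.303 to -0.085, but deviations cancel within a genotype, which by itself pushes these values down. Replicate 1 also had the same sex in both genotypes, unlike replicates 2 and 3. What else same-numbered samples share was not tested.

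Gene positions and UTRs were taken from GENCODE M21 on GRCm38, and miRNA sequences from RefSeq. The named genes were Lin28b, the 12 calls per direction lowest in adjusted p among those without overlap of the groups, the 6 largest changes per direction with a mean of at least 5 FPKM in the higher group, the 4 called members with the smallest adjusted p and the 2 most abundant uncalled members of each list, markers of other cells and sex genes. Genes named in an earlier account of the series and unnamed gene models could be passed over. Other called members of a list, the families, the known let-7 targets and the genes set beside them (Il7r, Lef1, Runx3, Trac) were added after values were seen. Members and lists were chosen with earlier results of these data known. Some genes that met these rules are not reported here.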

Additional observations from a re-analysis of the deposited data

Results flagged for a closer look

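The lin28Tg effect differed between day 5 and an earlier stage, by the limma test of the difference over 18 libraries, in 15 genes against 12 h and 33 against naive cells that also had calls in opposite directions at the stages compared. The 6 with the smallest adjusted p at each stage are given. Values are the day 5 log2 fold change minus the earlier one. Against 12 h the difference was -1.17 for Jade2, a reader of chromatin marks (adjusted p = 2.05e-04), 1.13 for Jarid2 (adjusted p = 2.05e-04), -2.09 for Ust, a sulfotransferase (adjusted p = 2.13e-04), -2.06 for Stmn1 (adjusted p = 2.94e-04), -1.48 for Trim14 (adjusted p = 2.94e-04) and -3.68 for Slc2a6, a hexose transporter (adjusted p = 8.84e-04). Jarid2 was the single one of these 6 that was higher at day 5 and lower at 12 h. Against naive cells the difference was -3.88 for Stmn1 (adjusted p = 8.42e-07), -3.82 for Ccr7 (adjusted p = 4.46e-06), -3.08 for the arrestin-domain gene Arrdc4 (adjusted p = 4.46e-06), 4.23 for Prf1, perforin (adjusted p = 1.05e-05), -1.86 for the amino acid transporter Slc43a1 (adjusted p = 3.44e-05) and -3.35 for the nucleosome-binding Hmgn3 (adjusted p = 5.01e-05). Prf1 alone of these 6 went from lower in naive lin28Tg cells to higher in lin28Tg CTLs. When 1 day 5 library was left out, the day 5 call was lost in 6 of 6 cases for Jade2 and Slc43a1, 5 for Slc2a6, 4 for Arrdc4, Hmgn3 and Trim14, 3 for Stmn1 and 0 for Jarid2, Ust, Ccr7 and Prf1, with adjusted p over all alternatives of up to 0.251. Sex differed between libraries of the earlier stages, and its part was not tested.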

How the results depend on the processing

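Each of the 566 DEGs that was tested kept its direction under all 18 alternatives. As the groups of every DEG did not overlap, a reversal was hardly possible, and the kept direction says little about stability. The counts, 268 higher and 298 lower with 134 list members among them, became 173, 169 and 76 without the filter, 106, 119 and 61 with the 6 libraries alone, and 4, 2 and 3 with replicates 2 and 3 alone (1868 genes at an unadjusted p under 0.05). With the replicate block they became 915, 843 and 313, and all 566 remained called, so that the block ended no call. Leaving out 1 library gave 63 to 285 higher genes, 82 to 329 lower genes and 49 to 146 list members. With another pseudocount, counts scaled to depth, a stricter filter, another scaling, no trend or precision weights the count of DEGs stayed between 467 and 593. The 884 differences from 12 h became 779 with the block and 559 to 1784 when leaving out 1 library (918 above and 866 below without WT replicate 3), and the 2023 differences from naive cells 1825 and 1575 to 2600. Over all 3′ UTRs of a gene the share with a seed match was 23.6% in the higher, 21.1% in the lower and 18.2% in all tested genes. With the longest coding transcript these shares were 23.3%, 18.8% and 16.9%, so the higher and lower genes lay closer together over all 3′ UTRs. The cause of these changes was not tested. At these depths 10 reads on a 2 kb gene stand for up to 0.271 FPKM, and genes below that rest on few reads.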
